A study of Mus musculus with 2 samples.

Results

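The 4 HOX gene clusters were examined for H2BK120ub, histone H2B carrying a single ubiquitin at lysine 120, in liver cells with and without the E3 ubiquitin ligase UBR7. The clusters were taken as fixed windows of the human build hg19, and every peak that overlapped a window by at least 1 bp was included. HOXA was chr7:27130000-27250000 (10 genes listed, HOXA2 to HOXA13), HOXB was chr17:46600000-46810000 (10 genes, HOXB1 to HOXB13), HOXC was chr12:54330000-54450000 (9 genes, HOXC4 to HOXC13) and HOXD was chr2:176955000-177057000 (9 genes, HOXD1 to HOXD13). These windows held 39 of the 101866 peaks of the WT library and 54 of the 127444 peaks of the UBR7-KO library, 93 of 229310 in all. The rule is one of coordinates and uses no peak value, although earlier results of these data were known when the clusters were picked.

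HOX genes encode homeodomain transcription factors that give cells their position along the body axis of the embryo. Their order on the chromosome follows their order of use, from the low-numbered genes at the 3′ end, which act early and toward the head, to the high-numbered genes at the 5′ end, which act late and toward the tail. HOXA13 and HOXD13, for example, act in the distal limb, and HOXB13 acts in the tail bud and the prostate. H2BK120ub is laid down by RNF20 and RNF40 together with transcription elongation, and the authors describe UBR7 as a further ligase for it. H2BK120ub promotes methylation of histone H3 at lysines 4 and 79, marks found on active HOX genes, whereas Polycomb complexes keep these genes silent. In hg19 the HOXA and HOXB clusters run from the low-numbered gene at the lower coordinate to the high-numbered gene, and the HOXC and HOXD clusters run the other way.

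The ChIP-seq data comprised 1 library of wild-type (WT) liver primary cells and 1 from the genotype Alb-Cre;UBR7fl/fl (UBR7-KO), in which Cre under the albumin promoter deletes floxed UBR7 in cells of the hepatocyte lineage. Per the methods they were primary cells extracted from the liver of male C57BL/6 mice aged 8 weeks. The labels, unlike the methods, call them conditionally immortalized, and the methods do not state whether they were cultured before ChIP. The samples are labelled as mouse, whereas the reads were aligned to a human genome, and how mouse reads would fall on the HOX windows of hg19 was not tested. With 1 library per genotype there is no replicate error and no test between genotypes, and each difference below is one between 2 peak lists. The number of reads is unknown. The floor (1st percentile) of the background recovered from the peak values, a measure of relative depth, was 1.81 in WT and 1.16 in UBR7-KO, a ratio of 0.640, so that depth and genotype cannot be told apart wherever UBR7-KO is compared with WT. Gene positions in hg19 were not used here, so peaks are given by position and not by gene, and markers of liver cells were not examined.

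All 4 HOX clusters were densely covered by H2BK120ub peaks in both lists, and all 4 were covered less in UBR7-KO. In WT, peaks covered 73.5 kb of HOXA (61.3% of the window), 114 kb of HOXB (54.1%), 105.4 kb of HOXC (87.8%) and 68.5 kb of HOXD (67.1%). In UBR7-KO, peaks covered 56.8 kb of HOXA (47.3%), 71.5 kb of HOXB (34.0%), 66.8 kb of HOXC (55.7%) and 58.6 kb of HOXD (57.5%). HOXC thus led in WT, whereas HOXD and HOXC stood closely together in UBR7-KO, and HOXB was the least covered cluster in both. Over the 4 windows, 361 kb (65.4%) was covered in WT and 254 kb (46.0%) in UBR7-KO, a ratio of 0.703. The ratio was 0.772 for HOXA, 0.630 for HOXB, 0.634 for HOXC and 0.856 for HOXD.

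**Figure D1:**
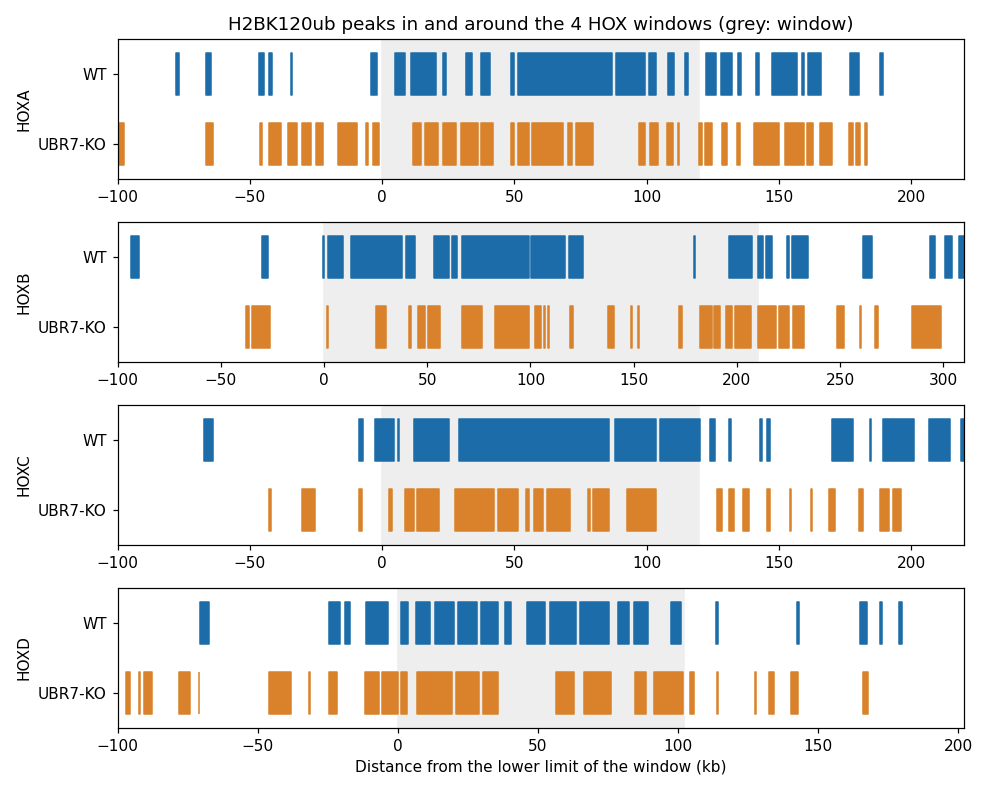
Peaks of the WT list (blue) and the UBR7-KO list (orange) along each HOX cluster, with the distance from the lower limit of the window in kb on the horizontal axis, the window in grey and 100 kb shown on each side. Long unbroken WT peaks fill much of HOXA, HOXB and HOXC, where the UBR7-KO list holds more peaks with gaps between them, and outside the grey windows coverage is lower on most sides, with dense stretches such as UBR7-KO beside HOXA (50.5 and 59.6% of the next 50 kb).

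The number of peaks moved the other way in 3 clusters. HOXA carried 11 WT and 15 UBR7-KO peaks, HOXB 10 and 19, and HOXC 6 and 11, whereas HOXD carried 12 WT and 9 UBR7-KO peaks. Over all clusters the ratio of peak numbers was 1.38, beside 1.25 for the whole lists. More peaks therefore covered less of HOXA, HOXB and HOXC in UBR7-KO.

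To see whether the clusters stood apart from their surroundings, each was set beside 500 kb on either side. In WT, HOXD was covered 16.7 times as densely as its flanks (67.1% against 4.02%), HOXA 6.16 times (61.3% against 9.95%), HOXB 3.69 times (54.1% against 14.7%) and HOXC 3.33 times (87.8% against 26.4%). In UBR7-KO the same values were 7.59 for HOXD (flanks 7.57%), 3.87 for HOXA (12.2%), 2.82 for HOXC (19.8%) and 1.43 for HOXB (23.9%). The clusters stood less far above their flanks in UBR7-KO in each case. The windows were covered less, and the flanks of HOXA, HOXB and HOXD, both sides together, were covered more. Of these flanks only the upper one of HOXA was covered less, at 13.8% in WT and 10.9% in UBR7-KO. The flanks of HOXC were covered less in UBR7-KO, with a ratio of 0.748.

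A coverage of at least 2-fold that of the flanks was reached by 4 of 4 clusters in WT and by 3 of 4 in UBR7-KO, all but HOXB. Among all windows of 120 kb covered by at least 10%, the same was true of 20.9% in WT and 17.4% in UBR7-KO. The median coverage of these windows was 25.9% in WT and 19.6% in UBR7-KO, below that of every HOX cluster. They were not matched to the clusters in coverage. HOXA and HOXC are 120 kb long, HOXB is 210 kb and HOXD is 102 kb. HOXB fell below this level in UBR7-KO together with a rise of its upper flank, beyond the HOXB13 side, from 21.4% to 38.8%.

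**Figure D2:**
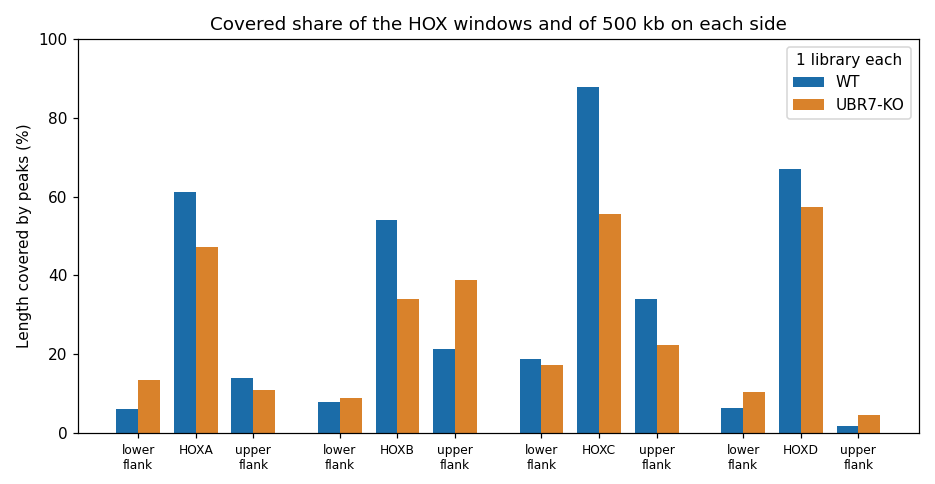
Share of each HOX window and of 500 kb below and above it covered by peaks, in percent, for the 1 WT library (blue) and the 1 UBR7-KO library (orange). Each of the 4 windows is taller in WT, and the only flank taller than its own window is the upper flank of HOXB in UBR7-KO, at 38.8% against 34.0%.

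Directly outside the windows the order of the lists turned. In the first 50 kb next to a window, UBR7-KO was covered more than WT on 8 of 8 sides. Of all windows of 50 kb with any peak, 53% were covered more in UBR7-KO. The mean over the 8 sides was 17.8% in WT and 33.0% in UBR7-KO. The largest gap was on the HOXA2 side of HOXA, where 11.5% was covered in WT against 50.5% in UBR7-KO, while the smallest was on the HOXC13 side of HOXC, with 7.68% and 12.9%. On the HOXD13 side of HOXD, 27.0% was covered in WT and 42.8% in UBR7-KO. Between 50 and 100 kb from the windows UBR7-KO was higher on 3 of 8 sides (mean 15.9% in WT and 11.0% in UBR7-KO), and in the bins of 50 kb beyond that, out to 500 kb, on 4 to 7 of 8. The comparison by distance was added after the values were seen, and the count of 8 sides fell to 4 when peaks needed a pileup 3 times their background and to 2 when they needed a fold enrichment of 2.5.

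**Figure D3:**
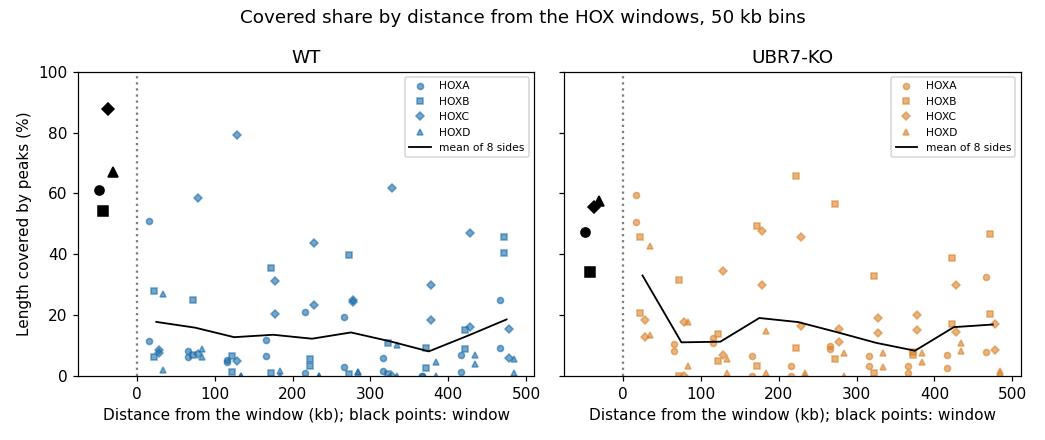
Share covered by peaks (percent) in bins of 50 kb against distance from the HOX windows (kb), with both sides of the 4 clusters as coloured points, their mean as a line and the windows themselves as black points left of 0. In WT every black point lies above all bins of its own flanks, whereas in UBR7-KO 2 bins next to HOXA and 6 around HOXB reach the level of their window.

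The clusters were also set beside all 25765 windows of 120 kb along the genome. In WT, 0.858% of these were covered at least as much as HOXC, 3.46% as HOXD, 4.48% as HOXA and 5.85% as HOXB. In UBR7-KO, the shares were 1.86% for HOXD, 2.05% for HOXC, 3.28% for HOXA and 6.64% for HOXB. The HOX windows thus lay among the most densely covered regions of both lists, while 221 windows in WT were covered as much as HOXC and 478 in UBR7-KO as much as HOXD.

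The lower coverage in UBR7-KO was shared by most regions that were as densely covered. In the windows of 120 kb where the mean share of both lists lay between 40 and 75%, a range set to hold the HOX clusters (44.1 to 71.8%), the median ratio of UBR7-KO to WT was 0.689 with quartiles of 0.524 and 0.852. Of these 1536 windows, 88.3% were covered less in UBR7-KO, beside 4 of 4 HOX clusters. HOXA, HOXB and HOXC lay within these quartiles and HOXD lay just above the upper one, at 0.856. A coverage at least 1.5-fold lower in UBR7-KO was seen in 2 of 4 clusters, HOXB and HOXC, and in 32.6% of all windows covered by at least 10% in either list. None of the 4 clusters was covered at least 1.5-fold more in UBR7-KO, as were 28.5% of these windows.

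**Figure D4:**
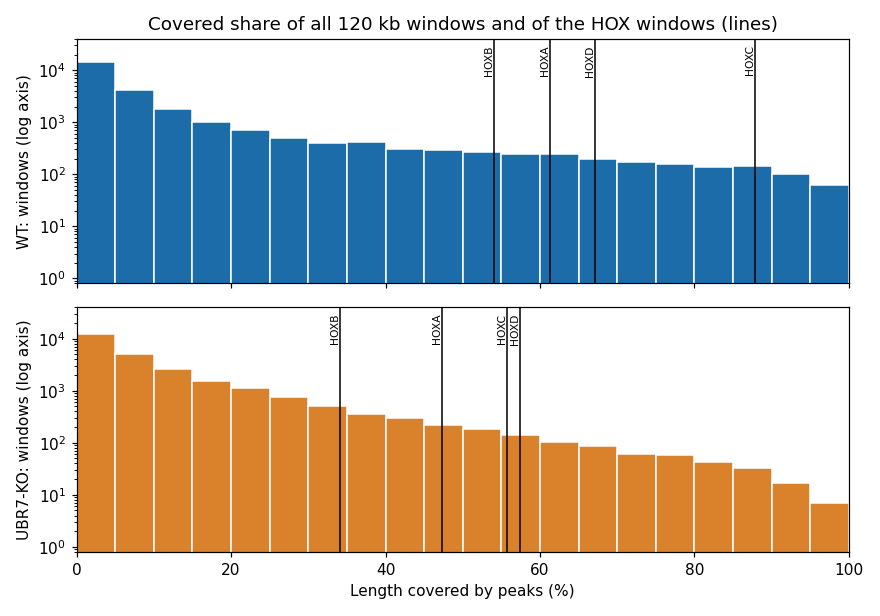
Number of windows of 120 kb (vertical log axis) by the share covered by peaks in percent, in the WT list (top) and the UBR7-KO list (bottom), with black lines at the shares of the HOX clusters. The lines lie in the right tail in both lists, between 54.1 and 87.8% in WT and between 34.0 and 57.5% in UBR7-KO.

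HOXA, which patterns limb, axial skeleton and blood, differed mainly on the HOXA13 side. Below the midpoint, on the HOXA2 side, 49.4% was covered in WT and 54.1% in UBR7-KO. Above it, on the HOXA13 side, 73.1% was covered in WT and 40.5% in UBR7-KO, a ratio of 0.554. The longest WT peak of the cluster, chr7:27181578-27216811 (35234 bp, pileup 8.19, fold enrichment 2.35), met 4 UBR7-KO peaks of 1449 to 11560 bp that covered 67.0% of it. The longest of these, chr7:27186790-27198349, was also the longest UBR7-KO peak of HOXA and had a fold enrichment of 2.27. The other WT peak over 10000 bp, chr7:27218632-27229495 (10864 bp, fold enrichment 2.33), met a UBR7-KO peak of 1992 bp at its upper end. Between these pieces the UBR7-KO list had a gap of 17.4 kb, of which WT peaks covered 89.5%.

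In HOXA the peak of highest fold enrichment differed in place between the lists, and in each case a peak of the other genotype overlapped it. The highest fold enrichment in WT was 2.81 at chr7:27178716-27179830 (1115 bp), and the UBR7-KO peak there (962 bp, fold enrichment 2.18) began 51 bp and ended 102 bp inside it. The highest in UBR7-KO was 2.80 at chr7:27231331-27234346 (3016 bp), and its WT counterpart had 2.54. On the HOXA2 side some UBR7-KO peaks were the longer ones, as at 27152896 to 27157862 (4967 bp), where the WT peak had 1003 bp.

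HOXB, which patterns the hindbrain and is active in blood precursors, was covered along its HOXB1 side. Below the midpoint 79.4% was covered in WT and 42.2% in UBR7-KO, whereas above it, on the HOXB13 side, the shares were 28.7% and 25.9%. WT held 4 peaks over 10000 bp here. The longest, chr17:46666753-46699159 (32407 bp, fold enrichment 2.43), met 2 UBR7-KO peaks that covered 79.6% of it, among them the longest UBR7-KO peak of any HOX cluster, chr17:46682863-46699273 (16411 bp, fold enrichment 2.14). The next, chr17:46612964-46637616 (24653 bp, fold enrichment 2.55), met a single UBR7-KO peak of 4485 bp. Of chr17:46700386-46716791 (16406 bp, fold enrichment 2.15), 25.8% was covered by 3 UBR7-KO peaks of 347 to 3352 bp. The last, chr17:46796105-46807266 (11162 bp, fold enrichment 2.34), lay near the HOXB13 end and met 2 UBR7-KO peaks covering 82.9% of it. The long WT peaks thus differed among themselves in how much of them the UBR7-KO list covered.

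A broad gap separated the main part of HOXB from the HOXB13 end in WT. No WT peak lay in the 53.8 kb from 46725447 to 46779285, and 4 UBR7-KO peaks of 576 to 2657 bp lay there, covering 10.5% of it. HOXB also held the UBR7-KO peak with the highest fold enrichment of all HOX clusters, 3.54 at chr17:46640957-46642127 (1171 bp, pileup 10.08). It ranked 118 among 127444 peaks of its list, and its WT counterpart of 4520 bp had a fold enrichment of 2.28. The highest WT value in HOXB was 2.62 at chr17:46653169-46660490 (7322 bp).

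HOXC, known for roles in the trunk, hindlimb and hair follicle, was almost filled in WT. A single WT peak spanned 56405 bp, chr12:54359227-54415631 (pileup 7.80, fold enrichment 2.42), the longest in any HOX cluster. It met 7 UBR7-KO peaks of 737 to 15030 bp, which covered 72.4% of it. The other WT peaks over 10000 bp were chr12:54342118-54355432 (13315 bp, fold enrichment 2.62), chr12:54417951-54433687 (15737 bp, 2.36) and chr12:54435109-54450229 (15121 bp, 2.26). The last of these, at the HOXC4 end, was the only WT peak over 10000 bp in a HOX cluster without a counterpart. The UBR7-KO list held 2 peaks over 10000 bp in HOXC, chr12:54357414-54372443 (15030 bp, fold enrichment 2.11) and chr12:54422750-54433715 (10966 bp, fold enrichment 2.04). The second ended 28 bp beyond the end of the WT peak it overlapped.

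The lower coverage of HOXC lay mostly toward HOXC4. On that side 93.8% was covered in WT and 45.1% in UBR7-KO, a ratio of 0.481, the lowest of any side of a HOX cluster, whereas on the HOXC13 side the shares were 81.9% and 66.3%. Peaks filled the last 10 kb of the window (100%) in the WT list and were at 0% there in UBR7-KO. The UBR7-KO peaks of HOXC shared 91.9% of their length with WT peaks. This was close to the 87.8% of the whole window that WT peaks covered. At the HOXC13 end, the peaks with the highest fold enrichment of the cluster in each list overlapped, at 2.78 in WT (chr12:54327512-54334631, 7120 bp) and 2.69 in UBR7-KO (chr12:54332658-54333784, 1127 bp).

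HOXD, known for patterning of the limb and genitals, differed least in covered length between the lists as deposited, though not under stricter thresholds. The shares of its sides were close, 67.4% in WT and 55.2% in UBR7-KO toward HOXD13 and 66.8% and 59.7% toward HOXD1. Of its 9 UBR7-KO peaks, 9 had a WT counterpart, as did 11 of 11 in HOXC, beside 35.2% of all UBR7-KO peaks. The HOXD peak at chr2:176949460-176955051 had only 52 bp in the window, and its WT counterpart lay outside. The lists shared 60.6% of the length covered by either in HOXD, the highest of the clusters, beside 55.4% in HOXC, 52.3% in HOXA and 36.7% in HOXB. Here the UBR7-KO list also held the longer peaks. The longest, chr2:176961989-176974340 (12352 bp, fold enrichment 2.40), overlapped 2 WT peaks, the only such case among the HOX clusters, and chr2:177046450-177056844 (10395 bp, fold enrichment 2.11) overlapped a WT peak of 3689 bp. The longest WT peak, chr2:177020146-177030489 (10344 bp, fold enrichment 2.68), had a UBR7-KO counterpart of 9869 bp.

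The peaks of HOXD stood highest over background in WT. The highest fold enrichment of all WT peaks in HOX clusters was 3.06 at chr2:177039356-177044360 (5005 bp), and the UBR7-KO peak there had 2.06. In UBR7-KO the highest value was 2.82 at the HOXD13 end, chr2:176956167-176958312 (2146 bp), and the WT peak there had 2.59. Midway along the cluster the UBR7-KO list had a gap of 20.9 kb, from 176990598 to 177011494, in which WT carried 2 peaks of 2477 and 6393 bp.

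In both lists HOX peaks were longer than peaks in general. The WT peaks of HOX clusters had a median length of 6393 bp, with quartiles from 2667 to 10604 bp, beside 1584.5 bp for all WT peaks, and in UBR7-KO it was 3735.5 bp, with quartiles from 1510.75 to 6557 bp, beside 1361.5 bp. Peaks over 10000 bp made up 11 of 39 in WT (28.2%, beside 7.58% of all) and 6 of 54 in UBR7-KO (11.1%, beside 3.75% of all). The median length in UBR7-KO was thus 0.584 times that in WT among HOX peaks and 0.859 times among all peaks. The long peaks held 95.2% of the covered length of HOXC in WT and 38.9% in UBR7-KO, whereas in HOXD they held 15.1% and 38.8%.

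**Figure D5:**
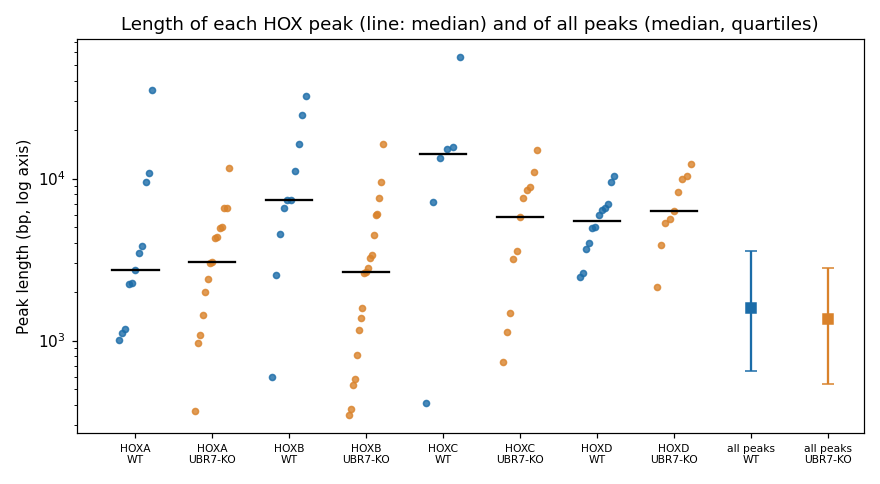
Length of each peak (bp, log axis) in the HOX clusters of the WT list (blue) and the UBR7-KO list (orange), with the median as a black line, and the median and quartiles of all peaks of each list as squares with bars. WT medians are above those of UBR7-KO in HOXB (7328.5 and 2657 bp) and HOXC (14218 and 5831 bp), and below them in HOXA (2737 and 3038 bp) and HOXD (5499 and 6278 bp).

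HOX peaks stood moderately high within the WT list and close to the middle of the UBR7-KO list. Their fold enrichment ranged from 2.03 to 3.06 in WT, with cluster medians of 2.34 in HOXB, 2.42 in HOXA, 2.52 in HOXC and 2.66 in HOXD beside 2.20 for all WT peaks, and 33 of 39 were above the median of the list. In UBR7-KO it reached 3.54, with cluster medians of 2.10 in HOXC, 2.18 in HOXB, 2.23 in HOXD and 2.27 in HOXA beside 2.15, and 29 of 54 were above the median. Values of 2.5 or more were held by 18 of 39 WT peaks (46.2%, beside 16.9% of all) and by 7 of 54 UBR7-KO peaks (13.0%, beside 9.77% of all). The background recovered at HOX peaks was higher than at peaks in general in both lists, with medians 1.25 times that of all peaks in WT and 1.21 times in UBR7-KO, and was highest at HOXB (medians of 3.99 and 2.41).

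HOX peaks of each list were found in the other list more often than peaks in general. A counterpart overlapping by at least 1 bp was found for 30 of 39 WT peaks (76.9%, exact 95% interval 60.7 to 88.9) beside 40.2% of all WT peaks, and for 45 of 54 UBR7-KO peaks (83.3%, exact 95% interval 70.7 to 92.1) beside 35.2% of all UBR7-KO peaks. The intervals are for counting error alone, and peaks of the same cluster are not independent of each other. Overlap is more likely where coverage is dense, and peaks covered 65.4% of the HOX windows in WT and 46.0% in UBR7-KO. How far this accounts for the higher shares was not tested. Longer peaks have counterparts more often. Among peaks of 1000 to 10000 bp the share was 76.9% in HOX clusters and 45.0% in the whole WT list (20 of 26 HOX peaks), and 85% and 42.5% in UBR7-KO (34 of 40 HOX peaks). Under 1000 bp, 0 of 2 WT peaks had one, beside 22.7% of all, and 5 of 8 UBR7-KO peaks (62.5%), beside 19.0%. Above 10000 bp, where 10 of 11 WT and 6 of 6 UBR7-KO peaks in HOX clusters had one, the shares in the whole lists were 85.2% and 94.2%.

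By length, 204 kb of the HOX clusters was covered in both lists, which was 56.5% of the WT length, 80.3% of the UBR7-KO length and 49.6% of the length in either list. The same shares over the whole lists were 40.5%, 45.7% and 27.3%. Shared length and nesting also depend on the coverage by the other list, which was dense in the HOX windows. Of the 54 UBR7-KO peaks, 25 lay wholly inside a WT peak (46.3%, beside 12.5% of all UBR7-KO peaks), and 4 of 39 WT peaks lay wholly inside a UBR7-KO peak (10.3%, beside 8.60% of all WT peaks). Among peaks with a counterpart, the shares inside were 55.6% of HOX and 35.6% of all peaks in UBR7-KO, and 13.3% and 21.4% in WT. In 7 cases a WT peak overlapped 2 or more UBR7-KO peaks by at least 1 bp, not always containing them (17.9% of WT HOX peaks, beside 5.62% of all WT peaks). The reverse was seen once, in HOXD (1.85% of UBR7-KO HOX peaks, beside 2.77% of all). There were 21 one-to-one pairs, with the WT peak the longer in 14 (66.7%, beside 54.7% of all 29927 such pairs) and the one of higher fold enrichment in 14 (66.7%, beside 60.6%).

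Most UBR7-KO peaks without a counterpart lay in HOXB, the longest of the windows. Of its 19 UBR7-KO peaks 7 had none (36.8%, beside 64.8% of all UBR7-KO peaks), so that even here they were fewer than in the whole list, and the other 2 lay toward the HOXA13 end of HOXA. The 9 WT peaks without a counterpart (59.8% of all WT peaks had none) were spread over HOXA (2), HOXB (2), HOXC (2) and HOXD (3). Their nearest UBR7-KO peaks lay 1394 to 3938 bp away, whereas the UBR7-KO peak at chr17:46751962-46752778, in the WT gap of HOXB, was 26508 bp from the nearest WT peak.

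Along the clusters, 56 bins of up to 10 kb were compared. UBR7-KO was covered less in 37, more in 17 and equally in 2, of which 1 in HOXB was empty in both lists. A coverage of 90% or more was found in 16 bins of WT against 4 of UBR7-KO. The bins with more coverage in UBR7-KO lay in HOXB (8), HOXA (4), HOXD (4) and HOXC (1), the largest at the HOXB13 side of HOXB (0% in WT and 68.7% in UBR7-KO).

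The limits of the windows cut through 4 peaks, 2 in each list. In WT these were the peaks at both ends of HOXC, reaching 2488 and 229 bp outside. In UBR7-KO a peak of 1089 bp at the upper limit of HOXA reached 884 bp outside, and one of 5592 bp at the lower limit of HOXD lay outside by 5540 bp. The first peaks wholly outside lay 115 to 11704 bp from the limits in WT and 40 to 26087 bp in UBR7-KO, with fold enrichments of 2.03 to 3.07 and 2.01 to 2.58.

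The direction of the difference depended on the threshold in HOXA. When peaks had to reach a pileup 3 times their recovered background, UBR7-KO covered 33.4 kb of HOXA (8 peaks) and WT 18.1 kb (5 peaks), a ratio of 1.85. The threshold kept more of the UBR7-KO list as a whole, 57216 of 127444 peaks, against 25796 of 101866 in WT. In the other clusters UBR7-KO stayed below WT under this threshold, nearly equal in HOXB (7.15 and 7.32 kb) and far lower in HOXC (1.13 and 18.4 kb), with 30.6 and 56.5 kb in HOXD. Over the 4 windows the ratio was then 0.722. With a fold enrichment of 2.5 or more required, UBR7-KO covered less of all 4 clusters, with ratios of 0.595 in HOXA, 0.0366 in HOXB, 0.0614 in HOXC and 0.0487 in HOXD. These last values rested on 1 UBR7-KO peak each in HOXB, HOXC and HOXD. Of all peaks, 16.9% in WT and 9.77% in UBR7-KO reached a fold enrichment of 2.5.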

How the data were processed

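H2BK120ub ChIP-seq peak lists of 1 WT and 1 UBR7-KO library were analysed, grouped by the genotype in the labels. Per the methods, the authors aligned reads with BWA aln to hg19 and called peaks in each library separately with MACS under a q-value cut-off that is not given in the sources used here, while the submitters' processing notes name FastQC and Bowtie 1.1.2. The deposited pileup is a signal that depends on depth. The deposited fold enrichment is a ratio of pileup to the background of the same library, no value being under 2, and the background was recovered from it with 1 added to both terms, as MACS does. With that 1 added, fold enrichment depends on depth as well, and the added 1 weighs more where the background is low. The floor of the background is its 1st percentile in a list. The peak length is in bp.

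After 6 blank rows of the UBR7-KO list were removed, covered length was counted in closed intervals for the 4 windows, 500 kb on each side, bins of 10 and 50 kb and all non-overlapping windows of 120 kb. Shares of peaks have exact (Clopper-Pearson) 95% intervals. No test was run, since each genotype has 1 library. Python 3.11.15, numpy 2.4.6, pandas 2.3.3 and scipy 1.17.1 were used, and overlaps were checked on simulated peaks with bedtools 2.31.1. All 38 listed genes were found in a RefSeq table of the mouse assembly GRCm38, whose positions were not used. No hg19 sequence or annotation was used here. For each window and list, the longest peak, the peak with the highest fold enrichment and all peaks over 10000 bp were named, and other peaks named were picked after their values were seen. The windows, comparisons and alternatives were chosen with earlier results of these data known.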

Additional observations from a re-analysis of the deposited data

How the results depend on the processing

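Shares of peaks were taken as moved outside their exact 95% interval, and other values beyond 1.5 times. The interval served only as a set limit here, since the alternatives reuse peaks of the same lists. At a fold enrichment of at least 2.5, HOX peaks numbered 18 in WT and 7 in UBR7-KO, covered 20.4% and 2.75% of the windows (ratio 0.135), and had counterparts in 16.7% and 42.9% (all peaks under the same rule 8.40% and 11.7%), and WT stood 9.14 times above its flanks. With a pileup 3 times the background or more, they numbered 19 and 15, covered 18.2% and 13.1%, and had counterparts in 36.8% and 40% (all 26.4% and 12.7%), and the ratio for HOXA reversed from 0.772 to 1.85. With peaks within 5000 bp merged, they numbered 12 and 21, with counterparts for 91.7% of WT peaks (all 41.9%). Requiring 50% of both peaks gave counterparts for 35.9% and 25.9% (all 15.0% and 12.0%), and 50% of the counted peak gave 56.4% in WT (all 26.5%). The ratio in the 50 kb next to the windows, added after the values were seen, reversed from 1.86 to 0.379 at a fold enrichment of at least 2.5. The thresholds on fold enrichment and on pileup differ by construction, since only fold enrichment has 1 added to both terms. The causes were otherwise not tested, beyond fewer or longer peaks by construction.

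The other 33 values over the 4 windows were not moved, including those with lists of equal size, windows widened by 20000 bp and flanks of 250 and 1000 kb. Of the values for single clusters and for the adjacent 50 kb, 9 moved and 19 did not, and the ratio for HOXC was 0.384 with lists of equal size. The ratio of covered length over the 4 windows was under 1 in each alternative run. With lists of equal size the WT list is used whole, so that of its values the counterpart share alone changed, to 71.8%. No paired analysis was possible because WT and UBR7-KO have 1 library each, and there was no replicate to leave out. Read depth is unknown, and the lower background floor of UBR7-KO (1.16, WT 1.81) limits every comparison of the lists.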
